A study of Homo sapiens with 6 samples.

Results

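The genes described here make up the cholesterol and fatty acid synthesis program of the cell. They were chosen by symbol from the count matrix as regulators of the sterol regulatory element-binding proteins (SREBPs), genes of sterol synthesis, and genes of fatty acid synthesis and uptake. The set holds 40 of the 35322 gene symbols, with 5 regulators, 19 genes in the sterol arm and 16 in the fatty acid arm. All 40 passed the filter on low counts, which kept 16510 genes for testing. RNA of 22Rv1, an established human prostate carcinoma line, was sequenced in 6 libraries to ask how the transcriptome responds to loss of ZMYND11, a chromatin reader of trimethylated histone H3. Of these, 2 were control cells labelled wild type, 2 were labelled ZM11-kd1 and 2 were labelled ZM11-kd2, both ZMYND11 knockdowns. All groups grew in RPMI1640 with fetal bovine serum, which itself carries lipoproteins, and no treatment is listed. The study's methods describe stable lentiviral shRNA lines under puromycin selection, and the study speaks of a control shRNA in the sequenced control cells, which the labels call wild type and give no vector. The shRNA of each knockdown and the origin of the replicates are not given in the sources used here. The p-values therefore measure only the spread between these libraries, which may be technical, and an effect of ZMYND11 loss cannot be told apart from an effect of a particular shRNA or cell line.

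SREBPs are held in the endoplasmic reticulum by the escort protein SCAP and the INSIG proteins while sterols are plentiful. When sterols fall, SCAP carries them to the Golgi, where proteases free the part that enters the nucleus and switches on target genes. SREBP2, from SREBF2, acts mainly on sterol synthesis and uptake, and SREBP1, from SREBF1, mainly on fatty acid synthesis. In prostate cancer cells this program is known to supply membrane lipids and stored sterol esters.

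Both knockdowns lowered the targeted transcript. ZMYND11 (chr10:130088-254637, GRCh38) had 141 and 135 normalised counts (CPM, scaled to a common library size by edgeR's TMM method) in the control libraries, 27.7 and 26.1 in ZM11-kd1, and 21.6 and 22.7 in ZM11-kd2. Its log2 fold change was -2.35 in ZM11-kd1 and -2.64 in ZM11-kd2. A gene is called here where edgeR's quasi-likelihood test gave a Benjamini-Hochberg adjusted p under 0.05 over all 16510 genes. Most genes of the whole transcriptome passed that threshold, so a call alone says little about the lipid genes, and their sizes and directions are given beside the same values over all genes. Library totals ran from 26844128 to 38193748 counts. Scaling by library totals in place of TMM moved the median log2 fold change of all genes by -0.35 in ZM11-kd1, by -0.17 in ZM11-kd2 and by 0.18 between the knockdowns. The share of calls that were higher then went from 49.0% to 35.3% in ZM11-kd1 and from 50.8% to 61.1% for ZM11-kd2 against ZM11-kd1. Fold changes also followed GC content and exon length across 15821 genes, with a Spearman correlation of 0.19 and -0.29 in ZM11-kd1, -0.03 and -0.14 in ZM11-kd2, and -0.30 and 0.24 between the knockdowns. Their part in the results below was not tested beyond the corrected fit. For the comparisons with control, its values are given where they end or turn a call or move a called value by over 1.5 times. Between the knockdowns only some of its values are given. Library totals shift every gene by about the medians above.

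The labelled cell type was checked against luminal prostate markers, all 8 of which passed the filter. Their summed CPM was 2707 to 2734 in control, 3668 to 3699 in ZM11-kd1 and 4048 to 4064 in ZM11-kd2. Within that list KLK3 went from 40.6 and 39.2 CPM in control to 4.33 and 4.09 in ZM11-kd1 and to 7.11 and 8.47 in ZM11-kd2. None of the 3 basal markers passed the filter, with a sum of at most 0.234 CPM in any library, and the endothelial sum was at most 0.196 CPM. The immune sum was at most 1.22 CPM, with CD3E at 0 in every library. The 4 fibroblast markers summed to 25.4 to 27.1 CPM in control, 77.4 to 78.2 in ZM11-kd1 and 31.4 to 33.6 in ZM11-kd2, nearly all from COL1A1. In bulk libraries, fewer cells of a type and less RNA per cell cannot be told apart, and the part of these markers in the lipid gene results was not tested.

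The promoters of the genes on which the results turn are shown for the letters known to recruit the SREBP machinery. RefSeq windows running from 250 bases before to 50 after a transcription start (GRCh38.p14) matched 36 of the 40 genes, with 54 windows in all, and ACAT2, FDFT1, SQLE and FASN were not matched. Searched on both strands were TCACNCCAC, a form of the sterol regulatory element with any base at N, CCAAT, the letters of the NF-Y cofactor, GGGCGG, the Sp1 box, and CACGTG, an E-box. Each stretch below runs 5′ to 3′ on the gene's strand, with 10 bases on either side of the outermost match where the window allowed it, and capitals mark matches of TCACNCCAC, CCAAT and CACGTG in either orientation (ATTGG and GTGGGGTGA are matches on the other strand). SREBF2 and ACSL1 are printed as the genes with a TCACNCCAC match, and other forms of the sterol element were not searched. INSIG1 and HMGCS1 are printed as the genes that differed most between the knockdowns of the 8 that moved in opposite directions against control. MVD, IDI1 and FDPS are printed as neighbouring sterol steps that moved apart, and SCD as the most abundant gene of the set.
SREBF2 (chr22:41832962-41833013, plus strand): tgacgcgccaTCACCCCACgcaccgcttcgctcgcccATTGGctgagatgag
INSIG1 (chr7:155297698-155297838, plus strand): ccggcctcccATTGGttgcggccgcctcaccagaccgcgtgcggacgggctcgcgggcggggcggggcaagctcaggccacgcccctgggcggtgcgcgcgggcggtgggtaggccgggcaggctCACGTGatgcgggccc
HMGCS1 (chr5:43313498-43313577, minus strand): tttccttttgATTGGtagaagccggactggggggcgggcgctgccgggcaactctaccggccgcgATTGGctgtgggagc
MVD (chr16:88663162-88663260, minus strand): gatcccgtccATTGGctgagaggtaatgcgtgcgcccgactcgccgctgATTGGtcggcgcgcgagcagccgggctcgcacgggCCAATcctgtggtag
IDI1 (chr10:1048959-1049028, minus strand): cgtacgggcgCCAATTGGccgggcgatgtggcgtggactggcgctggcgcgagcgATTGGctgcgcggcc
FDPS (chr1:155308680-155308829, plus strand): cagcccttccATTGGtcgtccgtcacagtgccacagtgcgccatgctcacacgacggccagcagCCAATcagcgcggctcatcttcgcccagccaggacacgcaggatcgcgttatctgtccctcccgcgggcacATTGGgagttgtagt
SCD (chr10:100346994-100347061, plus strand): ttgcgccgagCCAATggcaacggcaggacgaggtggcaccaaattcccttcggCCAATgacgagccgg
ACSL1 (chr4:184805754-184805803, minus strand): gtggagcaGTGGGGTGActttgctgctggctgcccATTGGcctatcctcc

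In IDI1 the run CCAATTGG holds a match on each strand, which overlap. CCAAT stood in 16 of 21 windows of the sterol arm (76.2%), in 12 of 27 windows of the fatty acid arm (44.4%) and in 2 of 6 windows of the regulators, against 34.6% of all 35116 RefSeq windows of this length. TCACNCCAC was found in 2 of the 54 windows, against 1.13% of all windows, and CACGTG in 6, or 11.1%, against 7.26%. GGGCGG was found in 44 of the 54 windows, or 81.5%, against 45.0% of all windows and 57.6% of the windows of tested genes. Printed genes with the same letters moved in different directions: HMGCS1, MVD and FDPS all held CCAAT at least 2 times, and their log2 fold changes in ZM11-kd1 were -1.70, 1.01 and -0.81. A match is only a description of the letters.

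Across the set, 35 of the 40 genes were called in ZM11-kd1 against control, 12 higher and 23 lower (57.5% lower). Over all genes tested 78.0% were called, 38.2% higher and 39.8% lower. The median absolute log2 fold change of the 40 genes was 0.52 against 0.87 over all genes in ZM11-kd1, 0.63 against 0.68 in ZM11-kd2, and 0.68 against 0.61 between the knockdowns. Only MVD was called with a log2 fold change over 1, where 19.1% of all genes were, and 9 genes were called with one under -1, where 22.9% of all genes were. In ZM11-kd2, 34 of the 40 were called, 17 higher and 17 lower, against 73.4% of all genes, 36.5% higher and 36.9% lower. There, 4 genes were called above 1 and 7 below -1, where 12.7% and 19.2% of all genes were. Between the knockdowns, 34 of the 40 were called, 24 higher in ZM11-kd2 and 10 lower, against 68.8% of all genes, 34.9% higher and 33.8% lower. Both comparisons with control use the same control libraries, so their values are given side by side and not as independent results. Replicates lay close together: the median absolute log2 difference between the replicates over the 40 genes was 0.04 in control, 0.06 in ZM11-kd1 and 0.10 in ZM11-kd2.

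**Figure D1:**
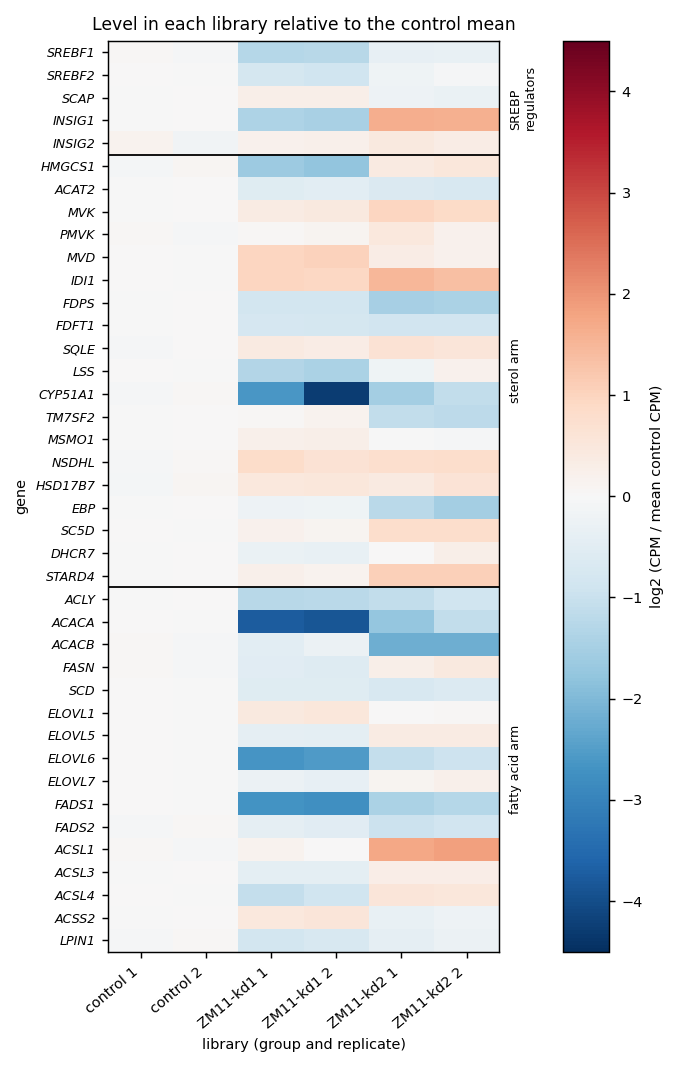
The heat map shows each of the 40 genes (rows, by regulators, sterol arm and fatty acid arm) in each of the 6 libraries (columns) as the log2 difference in CPM from the mean of the control libraries. ACACA, FADS1, ELOVL6 and CYP51A1 were lower in all knockdown libraries and lowest in ZM11-kd1, while INSIG1 was below control in ZM11-kd1 and above it in ZM11-kd2.

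Among the regulators, the genes of both SREBPs were lower in ZM11-kd1, and INSIG1 separated the knockdowns most. SREBF1, the gene of the SREBP that acts mainly on fatty acid synthesis, had 189.8 and 177 CPM in control, 74.9 and 76.9 in ZM11-kd1, and 141 and 145 in ZM11-kd2. The groups did not overlap, and the log2 fold changes were -1.27 ± 0.06 (SE, n = 2 and 2) in ZM11-kd1 and -0.36 ± 0.05 in ZM11-kd2 (-0.17 with the GC and length correction). SREBF2, the gene of the sterol SREBP, had 436 and 419 CPM in control, 246 and 232 in ZM11-kd1, and 375 and 409 in ZM11-kd2. It fell by 0.84 on the log2 scale in ZM11-kd1. In ZM11-kd2 its difference of -0.13 was not called, with an adjusted p of 0.0609 in edgeR's quasi-likelihood test, while library totals gave a called -0.30 and the GC and length correction 0.019. Without ZM11-kd2 replicate 2 it was -0.19 and called, and without ZM11-kd2 replicate 1 it was -0.066.

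INSIG1, an SREBP target whose product holds SCAP back, had 163 and 171 CPM in control, 63.6 and 60.7 in ZM11-kd1, and 518 and 503 in ZM11-kd2. Control libraries thus lay between the knockdowns, with a log2 fold change of -1.43 ± 0.06 in ZM11-kd1 and of 1.61 ± 0.05 in ZM11-kd2. ZM11-kd2 exceeded ZM11-kd1 by 3.04 ± 0.06 on the log2 scale, an 8.21-fold difference and the largest between the knockdowns among the 40 genes (edgeR adjusted p = 1.23e-13). INSIG2, the second retention protein, was far less abundant, at 16.8 and 13.5 CPM in control, 17.2 and 17.9 in ZM11-kd1, and 20.4 and 19.2 in ZM11-kd2. It was called only in ZM11-kd2 against control, at 0.39, and lost that call with library totals, with the GC and length correction (0.18) and without control replicate 2. Its 0.22 in ZM11-kd1 was called with that correction (0.25), without control replicate 1 (0.37) and without either ZM11-kd2 library. Per kilobase of exon, INSIG1 exceeded INSIG2 by 12.1 times on average in control, 3.83 times in ZM11-kd1 and 27.9 times in ZM11-kd2.

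SCAP, the escort, had 104 and 107 CPM in control, 126 and 126 in ZM11-kd1, and 91.2 and 86.9 in ZM11-kd2. Its log2 fold change was 0.25 in ZM11-kd1 and -0.25 in ZM11-kd2. The rise in ZM11-kd1 depended on scaling, being -0.10 with library totals and 0.05 with the GC and length correction, neither of them called. The lower value in ZM11-kd2 kept its call in both, at -0.42 and -0.14. Over all genes, 38.2% were called higher and 39.8% lower in ZM11-kd1, and 36.5% higher and 36.9% lower in ZM11-kd2. Of the 5 regulators, 1 was called higher and 3 lower in ZM11-kd1, and 2 higher and 2 lower in ZM11-kd2. The count of 1 became 0 with library totals, when all 5 values were negative, and 2 without control replicate 1 or without either ZM11-kd2 library, and the count of 2 higher in ZM11-kd2 became 1 with library totals, with the GC and length correction and without control replicate 2.

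**Figure D2:**
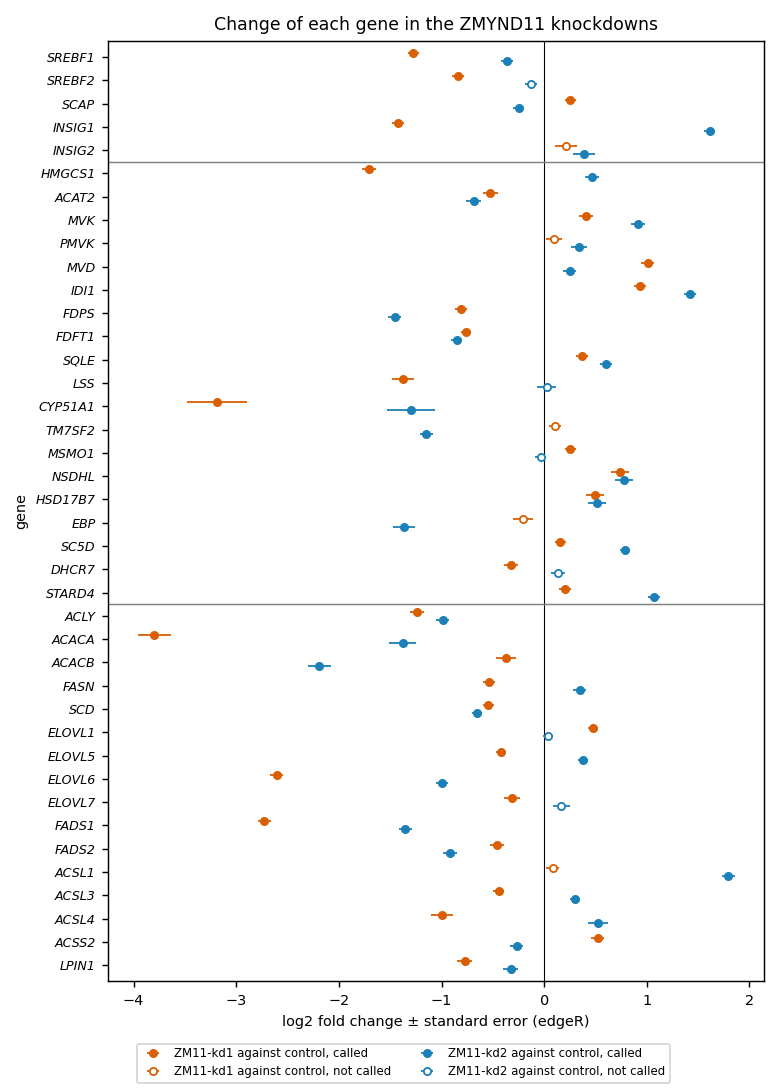
Each row is a gene and each point its log2 fold change (horizontal axis) against control in ZM11-kd1 or ZM11-kd2, with bars for the standard error and open points for genes not called. ACACA at -3.80 in ZM11-kd1 and ACSL1 at 1.79 in ZM11-kd2 lie farthest to either side, and INSIG1 and HMGCS1 have points on opposite sides of 0.

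The sterol arm had no common direction. In ZM11-kd1, 9 of its 19 genes were called higher (47.4%), 7 lower (36.8%) and 3 neither, against 38.2% of all genes higher and 39.8% lower. The median log2 fold change was 0.10 against -0.03 over all genes. With library totals the counts became 3 higher and 12 lower, so the balance of directions in ZM11-kd1 rests on the scaling. In ZM11-kd2, 10 genes were called higher (52.6%), 6 lower (31.6%) and 3 neither, against 36.5% and 36.9% of all genes. The median there was 0.25 against -0.03 over all genes. Between the knockdowns 10 were higher in ZM11-kd2, 5 lower and 4 neither, against 34.9% of all genes higher and 33.8% lower. The count of 5 became 8 with the GC and length correction.

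At the entry to the mevalonate pathway, the synthase fell in one knockdown and rose in the other. HMGCS1 (chr5:43287470-43313512), which makes HMG-CoA, had 135 and 150.1 CPM in control, 45.5 and 42.0 in ZM11-kd1, and 189.6 and 205 in ZM11-kd2. Its log2 fold change was -1.70 ± 0.07 in ZM11-kd1 and 0.47 ± 0.06 in ZM11-kd2, and the knockdowns differed by 2.17 ± 0.07. An antisense lncRNA model, not among the symbols of the matrix, overlaps 37.7% of its exon bases, and whether the counting used strand is not given. ACAT2, the cytosolic thiolase before it, had 40.3 and 41.2 CPM in control, 27.8 and 29.0 in ZM11-kd1, and 26.1 and 24.5 in ZM11-kd2. ACAT2 fell by 0.52 and by 0.69 on the log2 scale, with 17.2% of its exon bases antisense to TCP1.

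Of the next steps, from mevalonate to isopentenyl diphosphate, MVK and MVD were called higher in both knockdowns. MVK, the mevalonate kinase, had 33.0 and 34.5 CPM in control, 43.8 and 45.9 in ZM11-kd1, and 65.7 and 61.7 in ZM11-kd2, with log2 fold changes of 0.41 and 0.92. With library totals the rise of MVK in ZM11-kd1 was 0.06 and not called. PMVK, the following kinase, was called only in ZM11-kd2, at 0.34, a call lost with library totals (0.16) and with the GC and length correction (0.098), and its value of 0.10 in ZM11-kd1 turned to -0.77 with the GC and length correction. MVD, the decarboxylase, had 62.0 and 61.6 CPM in control, 121 and 127 in ZM11-kd1, and 77.0 and 69.9 in ZM11-kd2. It rose by 1.01 ± 0.06 in ZM11-kd1 (0.60 with the GC and length correction) and by 0.25 ± 0.06 in ZM11-kd2, the latter not called with library totals. MVD thus stood higher in ZM11-kd1 than in ZM11-kd2, the reverse of HMGCS1, and the per-kilobase ratio of MVD to HMGCS1 averaged 0.610 in control, 4.005 in ZM11-kd1 and 0.525 in ZM11-kd2.

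IDI1, the isomerase that makes the dimethylallyl unit, rose in both knockdowns, while FDPS, which joins the units into farnesyl diphosphate, fell in both. IDI1 had 131 and 128 CPM in control, 249.6 and 245 in ZM11-kd1, and 364 and 328 in ZM11-kd2, with log2 fold changes of 0.94 ± 0.06 and 1.42 ± 0.06. FDPS had 106 and 108 CPM in control, 60.99 and 60.7 in ZM11-kd1, and 37.8 and 40.2 in ZM11-kd2, with log2 fold changes of -0.81 ± 0.06 and -1.46 ± 0.06. No group overlapped another for either gene. Per kilobase, IDI1 and FDPS were nearly equal in control, with a mean ratio of 1.05 ± 0.0303 (SD, n = 2), and IDI1 exceeded FDPS by 3.52 ± 0.0315 times in ZM11-kd1 and by 7.71 ± 0.903 times in ZM11-kd2. RUSC1-AS1 lies antisense to 18.6% of the exon bases of FDPS, and IDI2-AS1 to 15.0% of those of IDI1.

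Squalene formation and cyclization also moved step by step. FDFT1, the squalene synthase and the sterol gene with the most CPM in control (though below MSMO1 per kilobase), had 337 and 338 CPM there, 202 and 197 in ZM11-kd1, and 188 and 186 in ZM11-kd2, falls of 0.76 and 0.85 on the log2 scale. SQLE, the monooxygenase that oxidizes squalene, went the other way, from 67.5 and 70.9 CPM to 91.1 and 87.8 and to 109 and 101, with log2 fold changes of 0.37 and 0.60, of which the first was 0.02 and not called with library totals. LSS, which closes the lanosterol ring, had 55.7 and 54.5 CPM in control, 22.0 and 20.5 in ZM11-kd1, and 48.7 and 63.3 in ZM11-kd2. It fell by 1.37 ± 0.10 on the log2 scale in ZM11-kd1. In ZM11-kd2 its libraries lay on either side of control, at a difference of 0.02 ± 0.10 that became -0.17 without ZM11-kd2 replicate 2 and 0.20 without replicate 1, both called.

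After lanosterol, CYP51A1, the demethylase, had the largest fall of the arm in ZM11-kd1, while in ZM11-kd2 FDPS did. It had 10.1 and 11.0 CPM in control, 1.71 and 0.540 in ZM11-kd1, and 3.69 and 4.90 in ZM11-kd2. The log2 fold change was -3.19 ± 0.29 in ZM11-kd1 and -1.30 ± 0.24 in ZM11-kd2. These levels are uncertain, because 68.2% and 67.8% of its exon bases are shared with 2 same-strand protein-coding models that are not among the symbols of the matrix, and the counting of shared reads is not given. TM7SF2, a reductase of the following step, and EBP, the sterol isomerase, fell in ZM11-kd2. TM7SF2 went from 95.6 and 95.8 CPM in control to 44.2 and 42.2, and EBP from 26.8 and 27.7 to 11.8 and 9.40, log2 fold changes of -1.15 and -1.36. In ZM11-kd1 neither was called, at 0.10 and -0.21, but the calls changed with the processing. With the GC and length correction they were a called -0.49 and -0.85, with library totals a called -0.25 and -0.56, and without either ZM11-kd2 library TM7SF2 was called higher, at 0.10 to 0.11, and EBP lower, at -0.20 to -0.21. EBP shares 36.4% of its exon bases with a same-strand model outside the matrix.

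NSDHL and HSD17B7, which act in C4 demethylation, were called higher in both knockdowns, and the last steps were mixed. NSDHL had 16.7 and 18.1 CPM in control, 30.9 and 27.2 in ZM11-kd1, and 29.2 and 30.4 in ZM11-kd2, and HSD17B7 also rose, the log2 fold changes being 0.74 (0.28 with the GC and length correction) and 0.78 for NSDHL and 0.50 and 0.51 for HSD17B7. Between the knockdowns these libraries overlapped for both genes, with differences of 0.04 ± 0.09 and 0.02 ± 0.08 that depended on the processing. NSDHL became a called 0.25 with the GC and length correction and a called 0.22 with library totals, and HSD17B7 a called -0.20 with that correction. With library totals the rise of HSD17B7 in ZM11-kd1 was 0.14 and not called. A named copy of HSD17B7 held counts of up to 23.2% of its own, so its value may be split. MSMO1, the methyl oxidase, was called only in ZM11-kd1, at 0.26, which was 0.11 with the GC and length correction and -0.10 with library totals. In ZM11-kd2 its -0.03 became a called -0.20 with library totals and a called -0.30 with the GC and length correction. SC5D, a desaturase, had 109.7 and 107 CPM in control, 123 and 118 in ZM11-kd1, and 187 and 186 in ZM11-kd2, with log2 fold changes of 0.16 and 0.79. The smaller value was 0.66 with the GC and length correction and -0.20 with library totals, and lost its call without control replicate 1, control replicate 2 or ZM11-kd1 replicate 1. DHCR7, the final reductase, went from 164 and 165 CPM in control to 133 and 129.7 in ZM11-kd1 and to 166 and 195 in ZM11-kd2, called only in ZM11-kd1, at -0.32. Its 0.14 in ZM11-kd2 was called without the filter, with the GC and length correction (0.24) and without ZM11-kd2 replicate 1 (0.25). STARD4, a carrier of free sterol, rose by 1.07 on the log2 scale in ZM11-kd2, from 55.1 and 55.3 CPM to 115 and 117, while its 0.20 in ZM11-kd1 was 0.42 with the GC and length correction and -0.15 with library totals, and lost its call without control replicate 1 or ZM11-kd1 replicate 1.

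The fatty acid arm leaned lower in ZM11-kd1. Of its 16 genes, 13 were called lower (81.3%), 2 higher and 1 neither, against 39.8% of all genes lower and 38.2% higher, with a median log2 fold change of -0.50 against -0.03 over all genes. In ZM11-kd2, 9 were called lower (56.3%), 5 higher and 2 neither, against 36.9% and 36.5% of all genes, with a median of -0.30 against -0.03. Between the knockdowns 11 were higher in ZM11-kd2, 4 lower and 1 neither, with a median of 0.61 against 0.02 over all genes. With the GC and length correction LPIN1 (0.15) and ELOVL1 (-0.093) lost these calls and SCD (-0.27) gained one. Genes called with a log2 fold change under -1 numbered 4 of 16 in ZM11-kd1 and 3 of 16 in ZM11-kd2. These are near the shares of all genes, 22.9% and 19.2%.

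The enzymes that supply malonyl-CoA were lower in both knockdowns, and ACACA had the largest fall of the arm in ZM11-kd1 and ACACB in ZM11-kd2. ACLY, which cleaves citrate to acetyl-CoA, had 287 and 294 CPM in control, 121 and 126 in ZM11-kd1, and 135 and 158 in ZM11-kd2, falls of 1.24 and 0.99 on the log2 scale. ACACA (chr17:37084992-37406836), the cytosolic acetyl-CoA carboxylase that commits carbon to fatty acid synthesis, had 131 and 125 CPM in control, 9.51 and 8.88 in ZM11-kd1, and 38.7 and 60.0 in ZM11-kd2. Its log2 fold change was -3.80 ± 0.16 in ZM11-kd1, a level 0.0719 times that of control and the largest change of the 40 genes against control (edgeR adjusted p = 2.29e-11). In ZM11-kd2 it was -1.38 ± 0.13, with the widest gap between replicates of the set in that group. ACACB, the carboxylase of the mitochondrial surface whose product restrains fatty acid oxidation, showed the other order. It had 25.4 and 23.3 CPM in control, 17.5 and 20.1 in ZM11-kd1, and 5.35 and 5.31 in ZM11-kd2, with log2 fold changes of -0.37 ± 0.10 and -2.19 ± 0.11. The smaller of these was 0.03 with the GC and length correction, and not called without ZM11-kd1 replicate 1. Per kilobase, ACACA exceeded ACACB by 5.88 times on average in control and by 10.3 times in ZM11-kd2, while in ZM11-kd1 it stood at 0.549 of ACACB.

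FASN, the synthase that builds palmitate, had 525 and 498 CPM in control, 359.6 and 344 in ZM11-kd1, and 609.5 and 691 in ZM11-kd2. Its log2 fold change was -0.54 ± 0.06 in ZM11-kd1 and 0.35 ± 0.06 in ZM11-kd2 (0.59 with the GC and length correction). FASN was therefore not as low as ACACA, and the per-kilobase ratio of FASN to ACACA averaged 5.57 in control, 53.5 in ZM11-kd1 and 19.0 in ZM11-kd2. SCD, the desaturase that makes oleate, was the most abundant member per kilobase in control, at the 99.6th percentile of tested genes. It had 1230.2 and 1211 CPM in control, 828 and 846 in ZM11-kd1, and 748 and 803 in ZM11-kd2, falls of 0.54 and 0.65 on the log2 scale.

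Elongases and the front-end desaturases differed by family member. ELOVL6, which extends palmitate, had 185 and 182 CPM in control, 29.0 and 31.3 in ZM11-kd1, and 88.2 and 95.7 in ZM11-kd2, with log2 fold changes of -2.61 ± 0.07 and -0.999 ± 0.06. ELOVL5, which extends polyunsaturated chains, had 229.9 and 229 CPM in control, 173 and 169 in ZM11-kd1, and 297 and 298 in ZM11-kd2, with log2 fold changes of -0.42 and 0.37. The per-kilobase ratio of ELOVL6 to ELOVL5 fell from a mean of 0.419 in control to 0.0923 in ZM11-kd1 and 0.162 in ZM11-kd2. ELOVL1, for very long saturated chains, was called only in ZM11-kd1, at 0.48, a value of -0.0038 with the GC and length correction, and ELOVL7 only in ZM11-kd1, at -0.31. In ZM11-kd2, ELOVL1 was called lower with library totals, at -0.13, and ELOVL7 higher without ZM11-kd2 replicate 1, at 0.22.

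FADS1 (chr11:61799627-61829318) and FADS2 (chr11:61792980-61867354), neighbouring and partly overlapping genes on opposite strands, encode the desaturases of polyunsaturated fatty acids. FADS1 had 237 and 236 CPM in control, 36.5 and 34.9 in ZM11-kd1, and 87.7 and 97.7 in ZM11-kd2, with log2 fold changes of -2.73 ± 0.07 and -1.35 ± 0.06. FADS2 had 60.7 and 64.3 CPM in control, 46.7 and 43.9 in ZM11-kd1, and 32.1 and 34.1 in ZM11-kd2, with log2 fold changes of -0.46 ± 0.07 (-0.30 with the GC and length correction) and -0.92 ± 0.07. FADS1 was thus lowest in ZM11-kd1 and FADS2 lowest in ZM11-kd2, and the per-kilobase ratio of FADS1 to FADS2 averaged 3.91 in control, 0.814 in ZM11-kd1 and 2.88 in ZM11-kd2. Their exons share 490 bases on opposite strands, 4.79% of those of FADS1.

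**Figure D3:**
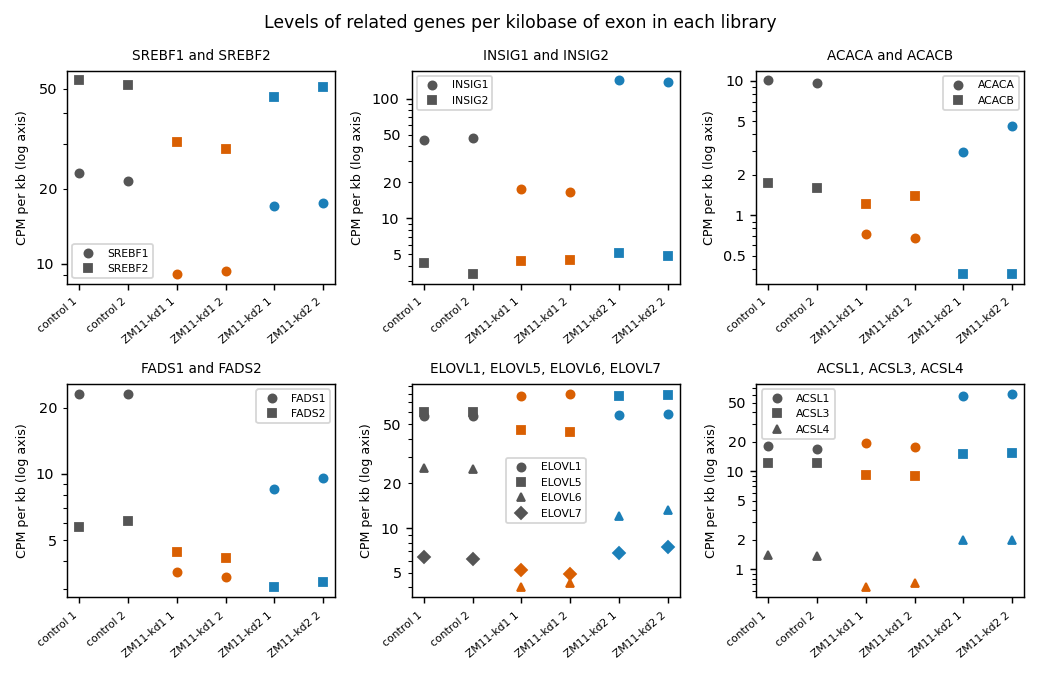
Each panel shows related genes in the 6 libraries, as CPM per kilobase of exon on a log axis, with marker shape for the gene and colour for the group. In ZM11-kd1, ACACB stands above ACACA and FADS2 above FADS1, the reverse of control.

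Of the 5 fatty acid genes called higher in ZM11-kd2, 3 were acyl-CoA synthetases, which activate fatty acids for use, while ACSL5 and ACSL6 of the same family, not in the set, were called lower there. ACSL1, an acyl-CoA synthetase of imported and newly made fatty acids, had 117 and 109 CPM in control, 125 and 114 in ZM11-kd1, and 381 and 402 in ZM11-kd2. Its libraries overlapped between control and ZM11-kd1, at a difference of 0.08 ± 0.06 that was not called (0.34 and called with the GC and length correction, -0.27 with library totals), and it rose by 1.79 ± 0.06 in ZM11-kd2, a 3.47-fold difference. ACSL3, the synthetase of lipid droplets, went from 176 and 176 CPM to 131 and 129 in ZM11-kd1 and to 216 and 219 in ZM11-kd2, with log2 fold changes of -0.44 and 0.30, which were 0.18 and 0.45 with the GC and length correction. ACSL4, which prefers arachidonate, had 13.8 and 13.6 CPM in control, 6.51 and 7.30 in ZM11-kd1, and 19.8 and 19.6 in ZM11-kd2, with log2 fold changes of -0.99 ± 0.11 (-0.50 with the GC and length correction) and 0.52 ± 0.10. ACSS2, which makes acetyl-CoA from acetate and so bypasses ACLY, was called higher in ZM11-kd1, at 0.52, and lower in ZM11-kd2, at -0.27, with 47.5 and 49.3 CPM in control, 68.0 and 71.0 in ZM11-kd1, and 38.8 and 41.6 in ZM11-kd2. LPIN1, a phosphatidate phosphatase that is also a nuclear partner of SREBP control, fell by 0.77 and by 0.33. With the GC and length correction these values were -0.26 and -0.11, the latter not called.

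Summed over genes, the fatty acid arm lost ground to the sterol arm in both knockdowns. The sterol arm summed to 1747 and 1773 CPM in control, 1698 and 1687 in ZM11-kd1, and 1998 and 1982 in ZM11-kd2. The fatty acid arm summed to 3499.95 and 3449.9 CPM in control, 2206 and 2209 in ZM11-kd1, and 2922 and 3160.1 in ZM11-kd2. The ratio of the fatty acid to the sterol sum was 2.004 and 1.95 in control, 1.30 and 1.31 in ZM11-kd1, and 1.46 and 1.59 in ZM11-kd2, so that no group overlapped another. On the log2 scale the mean ratio was 0.98 ± 0.03 in control, 0.38 ± 0.01 in ZM11-kd1 and 0.61 ± 0.09 in ZM11-kd2 (SD, n = 2). These sums are a description without a test, since the members were chosen with results of these data known. The sums were not recomputed with the GC and length correction. Within the sterol sum the gene with the most CPM was FDFT1 in control, MSMO1 in ZM11-kd1 and IDI1 in ZM11-kd2. Per kilobase, MSMO1 led FDFT1 in control, at 75.3 against 66.4, and stood at 89.9 in ZM11-kd1.

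SCD alone made up 35.1% of the fatty acid sum in control, 37.5% and 38.3% in ZM11-kd1, and 25.6% and 25.4% in ZM11-kd2. Without SCD the ratio kept its order, at 1.30 and 1.26 in control, 0.811 and 0.808 in ZM11-kd1, and 1.09 and 1.19 in ZM11-kd2. When STARD4 was left out of the sterol arm and the ACSL genes and LPIN1 out of the fatty acid arm, the change in log2 ratio in ZM11-kd2 went from -0.37 to -0.53 and the difference between the knockdowns from 0.23 to 0.10.

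**Figure D4:**
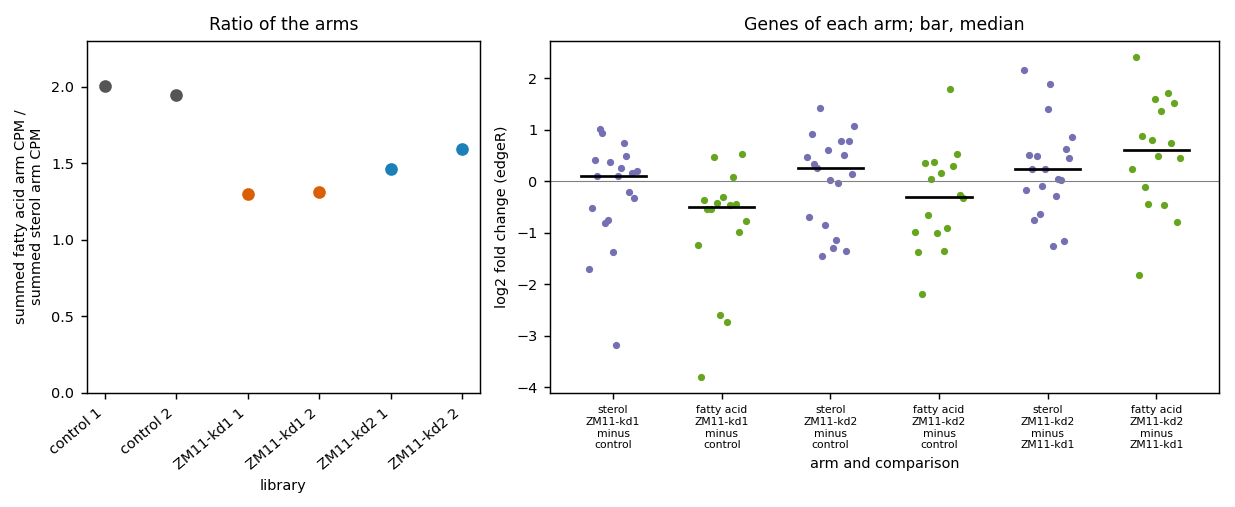
On the left, the ratio of the summed CPM of the 16 fatty acid genes to that of the 19 sterol genes is plotted for each library, highest in control at 2.004 and 1.95 and lowest in ZM11-kd1 at 1.30 and 1.31. On the right, each point is the log2 fold change of a gene of an arm in 1 of the 3 comparisons and each bar the median of the arm.

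The wider pathway was described from lists of neighbouring genes written by function, and their counts are to be read against the shares of all genes called, 38.2% higher and 39.8% lower in ZM11-kd1 and 36.5% higher and 36.9% lower in ZM11-kd2. Of 11 genes of SREBP processing and of INSIG or reductase turnover, 3 were called higher and 8 lower in ZM11-kd1, and 4 higher and 5 lower in ZM11-kd2. ERLIN1, part of the complex that degrades INSIG and the reductase, fell by 2.15 on the log2 scale in ZM11-kd1. In ZM11-kd2, MBTPS2, the Golgi protease that makes the last cut in SREBP, fell by 0.71 and RNF145, a sterol-responsive ligase, rose by 1.13. In the isoprenoid branch, which leaves the sterol path after FDPS, 6 of 9 genes were called higher and 3 lower in ZM11-kd1, and 5 higher and 3 lower in ZM11-kd2. PDSS1, of ubiquinone side chain synthesis, fell by 2.65 and DHDDS, of dolichol synthesis, rose by 1.89 in ZM11-kd1, and in ZM11-kd2 COQ2, also of the ubiquinone path, fell by 1.96 and GGPS1, the geranylgeranyl diphosphate synthase, rose by 1.29.

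For sterol transport and esterification, 10 of 11 genes passed the filter, of which 5 were called higher and 3 lower in ZM11-kd1, and 8 higher and 1 lower in ZM11-kd2. VLDLR, a lipoprotein receptor, had 18.4 and 17.7 CPM in control, 60.4 and 63.8 in ZM11-kd1, and 82.5 and 84.3 in ZM11-kd2, a rise of 2.21 on the log2 scale in ZM11-kd2. SCARB1, the receptor for high-density lipoprotein, had 159 and 157 CPM in control, 97.4 and 102 in ZM11-kd1, and 54.1 and 52.4 in ZM11-kd2, where it fell by 1.57. In ZM11-kd1 the largest rise of the list was that of GRAMD1A, a sterol transfer protein of the endoplasmic reticulum, at 2.78, and the largest fall that of GRAMD1C, at -0.83.

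Precursor supply was mixed, with 4 of 7 genes of citrate export and NADPH supply called higher and 3 lower in ZM11-kd1, and 4 higher and 2 lower in ZM11-kd2. SLC25A1, which exports the citrate that ACLY cleaves, had 117 and 118 CPM in control, 366 and 379 in ZM11-kd1, and 151 and 124 in ZM11-kd2, so that it rose by 1.66 in ZM11-kd1 while ACLY fell by 1.24. IDH1 fell by 0.51 there, and in ZM11-kd2 the NADPH-forming malic enzyme ME1 rose by 1.26 and PGD, of the pentose phosphate path, fell by 0.33. Of 14 tested genes among 16 other enzymes of fatty acid chains, 6 were called higher and 7 lower in either knockdown. ACSL5, a further acyl-CoA synthetase, had 2.83 and 2.77 CPM in control, 0.0589 and 0.0676 in ZM11-kd1 (2 counts in each library), and 0.308 and 0.234 in ZM11-kd2. HACD1, a dehydratase of chain elongation, rose from 1.15 and 1.03 CPM to 10.1 and 9.76 and to 4.98 and 5.14. ACSL6, another acyl-CoA synthetase, had 11.2 and 13.6 CPM in control, 6.80 and 6.76 in ZM11-kd1, and 4.81 and 5.61 in ZM11-kd2, with log2 fold changes of -0.87 and -1.25. ACSL5 and ACSL6 thus moved opposite to ACSL1 in ZM11-kd2.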

How the data were processed

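RNA of 6 libraries of 22Rv1 cells, in 3 groups of 2 by their labels, was analysed from the raw counts per gene that the authors deposited without normalization. The submitters' processing notes name FastQC 0.11.9, STAR 2.7.9a and HTSeq 0.13.5, and the methods add adapter trimming and alignment to hg38. The annotation counted, strand use and multiply mapped reads are not given in the sources used here. Totals of 26844128 to 38193748 counts set the precision of low genes.

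Counts were fitted in edgeR 4.0.16 (R 4.3.3; TMM, filterByExpr, quasi-likelihood test) over all 16510 genes that passed, in 1 fit of the 3 groups with 3 residual degrees of freedom, and adjusted by the Benjamini-Hochberg method. Genes with an adjusted p under 0.05 are called. Lists are described by counts and medians, without a set test. Exon lengths and positions came from GENCODE 44 (GRCh38), which matched 32565 of 35322 symbols and all 40 members, and promoter windows from RefSeq. Lengths are of all annotated exons together, so levels per kilobase depend on the isoforms used. Tested on simulated counts of 16510 genes in which 100 genes were changed by 2-fold, the fit recovered 78% of them in ZM11-kd1 and 77% in ZM11-kd2 against control, and 76% between the knockdowns. Of 100 genes changed by 1.5-fold it recovered 57%, 64% and 67%, and it called 10, 18 and 11 unchanged genes. Few genes were changed in these simulated counts, while most genes were called in the data, so they do not test the scaling.

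Alternatives were DESeq2 size factors, library totals, the DESeq2 1.42.0 Wald test, no filter, a replicate block, a GC and length correction (mgcv 1.9.3) and each library left out. The members, lists and alternatives were chosen with earlier results of these data known, except a block with crossed numbers, which was chosen after seeing the data. All 40 members may be named, and of each neighbour list only the called genes with the largest rise and fall against control. A gene on which a limit turns may also be named, such as ACSL6 beside the synthetases of the set. Some genes that these rules select are not reported here.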

Additional observations from a re-analysis of the deposited data

Results flagged for a closer look

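For 8 genes the knockdowns moved in opposite directions against control, with both changes called. Since the genes were picked for this, that they differ between the knockdowns follows from the choice, and the sizes are a description. ZM11-kd2 exceeded ZM11-kd1 on the log2 scale by 3.04 for INSIG1, 2.17 for HMGCS1, 1.52 for ACSL4, 0.89 for FASN, 0.80 for ELOVL5 and 0.75 for ACSL3. For ACSS2 and SCAP the difference was -0.79 and -0.50. The opposite signs of SCAP and ACSL3 against control depended on the scaling or on the GC and length correction, as described with those genes, and with that correction their differences between the knockdowns were -0.19 and 0.27. The groups have 2 libraries each, so no search for outlying libraries was made.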

How the results depend on the processing

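Over the 3 comparisons and 40 genes, 667 of 720 fold changes under the alternatives that keep all libraries had the direction and side of the threshold first reported, and 693 of 720 did when a library was left out. Directions reversed in 25 and 3 of them. With library totals the log2 fold change in ZM11-kd1 became -0.10 for SCAP, -0.14 for INSIG2, -0.26 for PMVK, -0.25 for TM7SF2, -0.10 for MSMO1, -0.20 for SC5D, -0.15 for STARD4 and -0.27 for ACSL1. In ZM11-kd2 it became -0.15 for LSS, -0.034 for DHCR7, -0.13 for ELOVL1 and -0.0016 for ELOVL7, and between the knockdowns 0.020 for ACAT2, 0.088 for FDFT1 and 0.075 for SCD. With the GC and length correction it became -0.77 for PMVK, -0.49 for TM7SF2, 0.029 for ACACB, -0.0038 for ELOVL1 and 0.18 for ACSL3 in ZM11-kd1, 0.019 for SREBF2, -0.097 for ELOVL1 and -0.012 for ELOVL7 in ZM11-kd2, and -0.072 for INSIG2 and -0.20 for HSD17B7 between the knockdowns. With a library left out, LSS in ZM11-kd2 ranged from -0.17 (without ZM11-kd2 replicate 2) to 0.20. Between the knockdowns NSDHL ranged from -0.049 (without ZM11-kd1 replicate 2) to 0.13 and HSD17B7 from -0.073 (without ZM11-kd2 replicate 2) to 0.098. The cause was not tested.

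With library totals, 0 regulators and 3 sterol genes were called higher and 12 sterol genes lower in ZM11-kd1, and 1 regulator higher in ZM11-kd2. All 5 regulators then had negative log2 fold changes in edgeR in ZM11-kd1. The GC and length correction gave 1 regulator higher in ZM11-kd2 and 8 sterol genes lower between the knockdowns. With a library left out, regulators called higher ranged from 1 to 2 in either knockdown. The change in log2 arm ratio in ZM11-kd1, -0.60 by sums, was -0.65 by mean log2 CPM and -0.63 without STARD4, the ACSL genes and LPIN1. Without those genes it was -0.53 in ZM11-kd2 and 0.10 between the knockdowns. The arm ratio was not computed with the GC and length correction. Calls over all genes stayed within 1.5 times of the reported counts under every alternative run.

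Same-numbered libraries did not deviate together, with correlations of 0.01 for control and ZM11-kd1, -0.05 for control and ZM11-kd2, and -0.11 for the knockdowns, so the numbers do not pair them. The replicate block gave 12545, 11688 and 10978 calls over all genes in ZM11-kd1, ZM11-kd2 and between the knockdowns, and changed none of the 120 calls and non-calls of the members. With the numbers of ZM11-kd2 crossed, the block gave 11574 calls between the knockdowns. Depth limits CYP51A1 most, with 1023 counts over all libraries.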

Other observations

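Over all genes tested, 38.2% were called higher and 39.8% lower in ZM11-kd1, and 36.5% higher and 36.9% lower in ZM11-kd2, against which the counts of these short lists are given. Of 7 genes of the oxysterol receptor LXR and its targets, 5 were called higher and 1 lower in ZM11-kd1, and 5 higher in ZM11-kd2, where the other 2 were not called. NR1H2, the gene of the broadly expressed LXR, had 43.6 and 49.1 CPM in control, 165 and 166 in ZM11-kd1, and 93.7 and 97.9 in ZM11-kd2. ABCG1, a sterol exporter, rose by 1.36 on the log2 scale in ZM11-kd2, and LPCAT3, which remodels phospholipids, fell by 1.16 in ZM11-kd1.

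Glycerolipid assembly and lipid droplets had 4 of 9 genes called higher and 3 lower in ZM11-kd1, and 3 higher and 3 lower in ZM11-kd2. DGAT2, which makes triglyceride, had 21.6 and 21.9 CPM in control, 3.21 and 3.41 in ZM11-kd1, and 6.77 and 8.35 in ZM11-kd2, and AGPAT2, of phosphatidate synthesis, had 22.3 and 22.2 CPM in control, 88.5 and 97.6 in ZM11-kd1, and 43.4 and 35.8 in ZM11-kd2. AGPAT1, a second gene of that step, rose by 1.06 in ZM11-kd2. Of 16 genes of fatty acid oxidation, 8 were called higher and 3 lower in ZM11-kd1, and 7 higher and 4 lower in ZM11-kd2. HADH, a dehydrogenase of mitochondrial oxidation, fell by 1.48 and ECI2, an isomerase of unsaturated chains, rose by 2.23 in ZM11-kd1, and in ZM11-kd2 ACAA2, the last thiolase, fell by 1.52. PPARGC1A, a coactivator of mitochondrial genes, had 1.15 and 0.612 CPM in control and 2.32 and 3.65 in ZM11-kd2, a rise of 1.76.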
